A study of Mus musculus with 32 samples.

Results

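The 6 chains of type IV collagen, encoded by *Col4a1* to *Col4a6*, were followed in the kidney cortex of mice. They were chosen by symbol, and all 6 were found among the 32544 genes of the count table and passed the filter on low counts in every comparison. The 32 kidneys were taken at 25 weeks, from 8 groups of 4 mice that differed by sex, genotype and diet. All mice carried the *Col4a3tm1Dec* allele on the C57BL/6J background. Control mice were heterozygous (*Col4a3*+/-) and Alport mice homozygous (*Col4a3*-/-), so that no group was wild-type at *Col4a3*. From 10 weeks of age, vehicle-treated mice received a purified diet and NR-treated mice the same diet with 0.5% w/w nicotinamide riboside (NR), a precursor of NAD+. Each library held the poly(A) RNA of the cortex of 1 mouse, a mixture of glomeruli, tubules, vessels and interstitium, with 16621944 to 27778797 counts. Markers of podocytes, endothelium, proximal tubule and distal nephron were detected in every group. Levels are given as CPM, the count of a gene relative to its library's total, scaled by the trimmed mean of M-values (TMM) over all 32 mice.

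Type IV collagen is the sheet-forming collagen of basement membranes. Its chains assemble inside the cell and leave it only as trimers. The chains of *Col4a1* and *Col4a2* form the trimer found in nearly all basement membranes. In the mature glomerular basement membrane, podocytes lay down a trimer made of the chains of *Col4a3*, *Col4a4* and *Col4a5*, and loss of any of these chains causes Alport syndrome. The chain of *Col4a6* pairs with that of *Col4a5* in other membranes, such as Bowman's capsule.

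The 6 genes lie in 3 pairs, transcribed away from each other from neighbouring starts. In the GENCODE M21 annotation of mouse build GRCm38, *Col4a1* (chr8:11198423-11312826, minus strand) and *Col4a2* (chr8:11312805-11449287, plus strand) overlapped by 22 bases at their first exons. *Col4a4* (chr1:82448423-82586849, minus strand) and *Col4a3* (chr1:82586921-82722059, plus strand) were separated by 126 bases between the starts of their full-length coding transcripts. *Col4a6* (chrX:141165403-141474076, minus strand) and *Col4a5* (chrX:141475385-141689234, plus strand) stood 1308 bases apart. The annotation and the use of strand in the counting are not given in the sources used here, so reads from overlapping bases of neighbours cannot be assigned. In RefSeq (GRCm38.p6) *Col4a1* reaches to 11312889, a longer overlap with *Col4a2*. There *Col4a4* (to 82587034) and *Col4a3* (from 82586921) overlap too. The full-length coding sequences were alike in length, from 5007 to 5121 bases. RefSeq promoter windows (GRCm38.p6, 250 bases before to 50 after the start) were matched for 5 of the 6 genes and not for *Col4a3*. GC content was 74.0% for *Col4a1* and 73.7% for *Col4a2*, 63.3% for *Col4a4*, 52.7% for *Col4a5* and 48.3% for *Col4a6*, against a median of 52.7% over all 32851 windows. The upstream bases of *Col4a6* and *Col4a5* are shown, since these neighbours moved by unequal amounts in the values given later, and they lie outside both genes. Each is written toward its own gene, with CCAAT in capitals on either strand.
Col4a6, chrX:141474096-141474326, minus strand: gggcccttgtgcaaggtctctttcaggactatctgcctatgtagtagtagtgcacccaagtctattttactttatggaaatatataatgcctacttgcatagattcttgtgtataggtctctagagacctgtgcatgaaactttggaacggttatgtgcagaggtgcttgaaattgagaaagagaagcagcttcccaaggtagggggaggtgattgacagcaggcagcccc
Col4a5, chrX:141475169-141475369, plus strand: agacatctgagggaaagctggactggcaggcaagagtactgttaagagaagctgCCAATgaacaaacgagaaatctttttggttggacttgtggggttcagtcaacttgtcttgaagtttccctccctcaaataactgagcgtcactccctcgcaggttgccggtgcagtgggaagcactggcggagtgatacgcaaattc
Searched on both strands of those windows, the GC box GGGCGG had 3 matches in that of *Col4a2* and 1 each in those of *Col4a1*, *Col4a5* and *Col4a6*. The matches of *Col4a5* and *Col4a6* did not lie within the upstream bases shown above. Of all windows 35.7% held this box. CCAAT was in the windows of *Col4a1*, *Col4a2* and *Col4a5* and in 37.4% of all windows. TATAAA (13.6% of all windows) and the homeodomain core TAATTA (5.29%) matched in none of the 5. These are matches of letters and not tested sites.

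The targeted gene was examined first. *Col4a3* reached 200, 197, 180 and 150 CPM in the 4 vehicle-treated male controls and 56.7, 66.7, 54.6 and 83.7 CPM in vehicle-treated male Alport mice. In females it was 161, 140, 140 and 163 CPM in controls and 57.6, 79.3, 59.8 and 60.2 CPM in Alport mice. Reads of the gene thus remained in every Alport mouse, and the groups did not overlap in either sex, as was so for 50.3% of all genes tested in males and 44.3% in females. The log2 fold change was −1.40 ± 0.14 (males, SE, n = 4 per group, adjusted p = 7.25e-06) and −1.19 ± 0.11 (females, adjusted p = 3.57e-05), by edgeR's quasi-likelihood test. Counts were made over the whole gene, and the exons that the allele lacks are not given in the sources used here, so the remaining reads cannot be split into parts of the transcript. The ratio of *Col4a3* to *Col4a4* counts followed the genotype label in every mouse. It was 0.537 to 0.822 in the 16 control mice and 0.293 to 0.413 in the 16 Alport mice, over both sexes and treatments.

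All 6 chains differed between vehicle-treated Alport and control mice in males, where 51.0% of the 15286 genes tested were called, and all 6 in females, where 45.8% of 15709 were called. Since about as many genes were called as not, the chains are described by the size and direction of their changes. In both sexes *Col4a1*, *Col4a2*, *Col4a5* and *Col4a6* rose and *Col4a3* and *Col4a4* fell. The median log2 fold change of the 6 was 1.09 in males and 0.80 in females. Over all genes tested it was −0.001 in each sex, a value that TMM scaling itself holds near 0. Changes were at least 2-fold for *Col4a1*, *Col4a2*, *Col4a3* and *Col4a6*, and the share of all genes that changed this much was not counted.

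**Figure D1:**
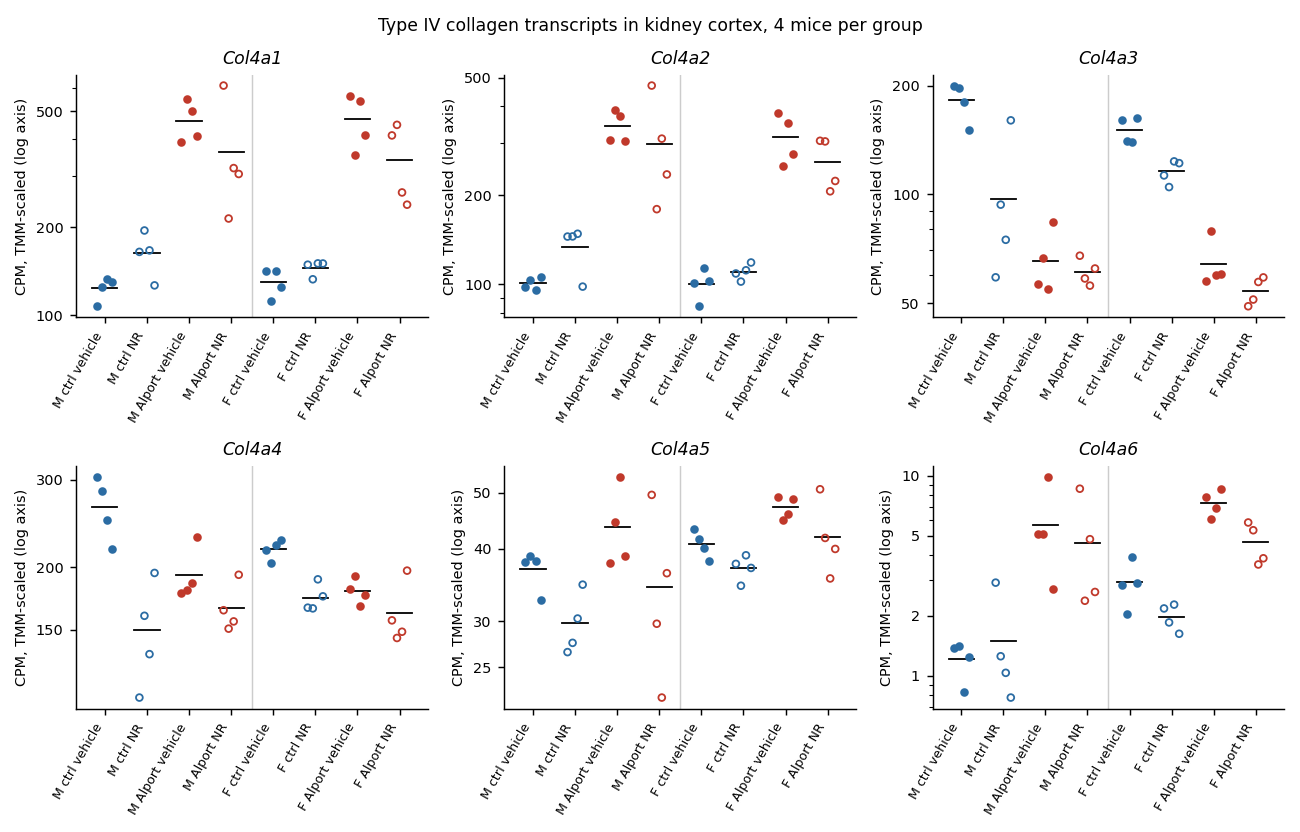
Level of each chain in CPM (log axis) in every mouse. Blue points are control and red points Alport mice, filled for vehicle and open for NR, with a black line at the group mean and males (M) left of the grey line. *Col4a1* and *Col4a2* were at 84.1 to 195 CPM in controls and at 179 to 611 CPM in Alport mice, while the mean of *Col4a3* was highest in vehicle-treated controls of each sex.

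The common chains showed the widest separation in absolute level. *Col4a1* was 107, 125, 133 and 130 CPM in vehicle-treated male controls and 391, 548, 500 and 411 CPM in vehicle-treated male Alport mice. In females it was 142, 112, 142 and 125 CPM in controls and 562, 353, 543 and 414 CPM in Alport mice. Every Alport mouse thus lay above every control, and the log2 fold change was 1.98 ± 0.12 (adjusted p = 2.27e-07) for males and 1.88 ± 0.15 (adjusted p = 2.19e-05) for females. *Col4a2*, its partner in the trimer, was 97.4, 103, 95.7 and 106 CPM in male controls and 308, 388, 372 and 306 CPM in male Alport mice. The female values were 101, 84.1, 113 and 102 CPM in controls and 380, 251, 351 and 276 CPM in Alport mice. Again no mouse of one genotype lay within the range of the other, and *Col4a2* rose on the log2 scale by 1.85 ± 0.098 (males, adjusted p = 7.31e-08) and 1.69 ± 0.14 (females, adjusted p = 2.39e-05). Of all genes tested, 50.3% in males and 44.3% in females had groups without overlap.

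The other chains of the glomerular trimer did not move with *Col4a3* to the same extent. *Col4a4* was 304, 285, 249 and 217 CPM in vehicle-treated male controls and 177, 181, 186 and 230 CPM in male Alport mice, and the groups overlapped through 1 mouse of each. In females it was 217, 204, 222 and 227 CPM in controls and 181, 192, 167 and 176 CPM in Alport mice, without overlap, as was so for 44.3% of all genes. The male log2 fold change was −0.37 ± 0.12 (adjusted p = 0.0208) and the female one −0.24 ± 0.071 (adjusted p = 0.0185). With total counts in place of TMM, which moved the median of all genes by 0.336 in males and 0.264 in females, the *Col4a4* value was −0.036 (adjusted p = 0.786) for males and turned to 0.022 (adjusted p = 0.803) for females. *Col4a5*, the X-linked chain of this trimer, was called higher. It was 37.9, 38.8, 38.1 and 32.7 CPM in male controls and 37.8, 44.4, 53.2 and 38.9 CPM in male Alport mice, so that the groups overlapped. Female controls had 43.2, 41.6, 40.1 and 38.1 CPM and female Alport mice 49.0, 44.9, 46.0 and 48.8 CPM, without overlap. The change was 0.32 ± 0.11 (males, adjusted p = 0.0286) and 0.25 ± 0.060 (females, adjusted p = 0.00631), and with total counts it was 0.67 and 0.52. In males, leaving out single mice ended the call of *Col4a4* without vehicle-treated Alport replicate 1 or 2 or control replicate 1 or 2, and that of *Col4a5* without Alport replicate 2 or 3 or control replicate 1 or 4. In females leaving out Alport replicate 3 ended the call of *Col4a4*. In 1 fit of all 32 mice *Col4a5* was not called in either sex (adjusted p = 0.196 for males and 0.279 for females), nor was *Col4a4* in females (adjusted p = 0.1).

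*Col4a6* was the scarcest chain and had the largest fold change of the 6 in males. It was 1.38, 1.41, 0.836 and 1.24 CPM in vehicle-treated male controls and 5.11, 5.09, 9.86 and 2.71 CPM in male Alport mice. In females it was 2.84, 2.03, 3.93 and 2.92 CPM in controls and 7.79, 6.04, 6.90 and 8.55 CPM in Alport mice. The genotypes did not overlap in either sex, as was so for 50.3% of all genes in males and 44.3% in females. The log2 change was 2.31 ± 0.37 (males, adjusted p = 0.000269) and 1.36 ± 0.20 (females, adjusted p = 0.000437). The level in controls also differed between the sexes. Among vehicle-treated controls *Col4a6* was higher in females, by 1.28 ± 0.27 on the log2 scale (adjusted p = 0.00358), and it was the only member called there, beside 31.7% of all genes tested. Among vehicle-treated Alport mice 0 of 6 members were called between the sexes, beside 3.84% of genes, with log2 differences of −0.13 to 0.35, adjusted p of at least 0.582 and no member at an unadjusted p under 0.05. The interaction of sex and genotype called no member, beside 0.532% of genes, and its value for *Col4a6* was −0.98 ± 0.44 (adjusted p = 0.376 by edgeR).

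**Figure D2:**
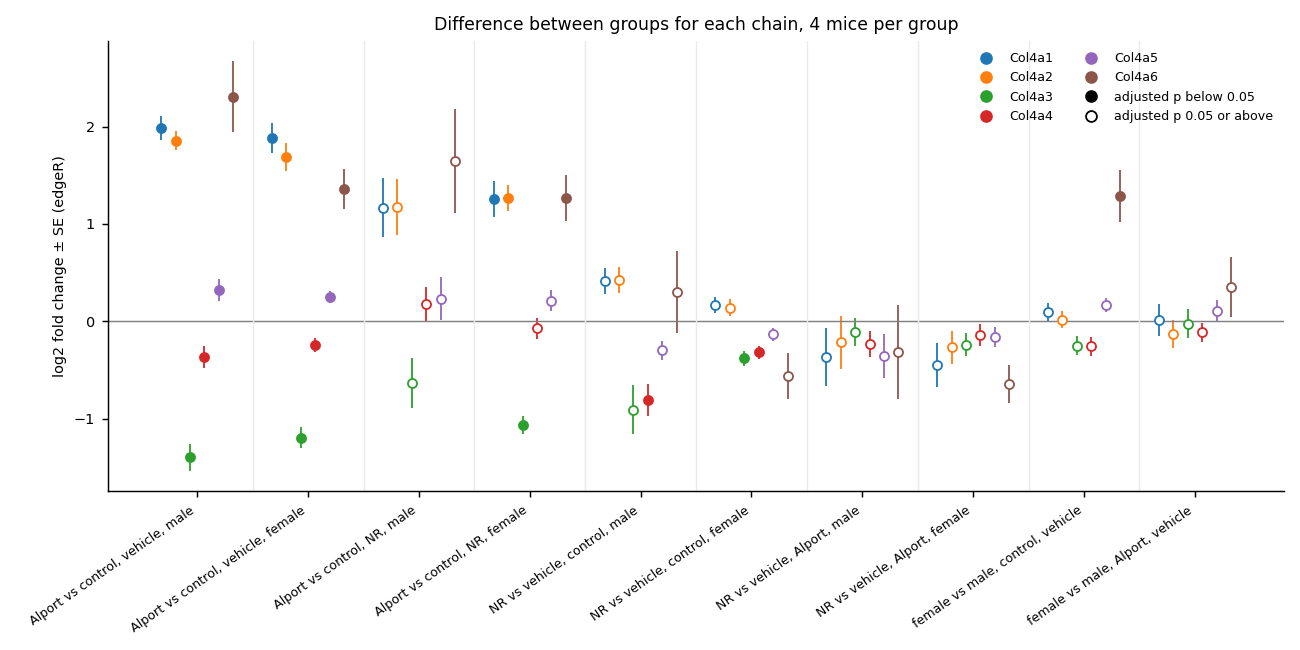
Log2 fold change with its standard error for the 6 chains in the 10 comparisons of 2 groups, 4 mice per group. Filled symbols mark an adjusted p below 0.05, and the positive values of *Col4a1*, *Col4a2* and *Col4a6* in Alport mice stand against the negative values of *Col4a3* in each of the 4 genotype comparisons.

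Levels of different chains were compared per 1000 bases of coding sequence. In vehicle-treated male controls the order was *Col4a4* (52.3 ± 7.59 CPM per 1000 coding bases, SD, n = 4), *Col4a3* (36.4 ± 4.55), *Col4a1* (24.7 ± 2.33), *Col4a2* (19.6 ± 0.929), *Col4a5* (7.27 ± 0.556) and *Col4a6* (0.240 ± 0.0522). Vehicle-treated female controls had the same order, from 43.1 ± 1.92 for *Col4a4* to 0.577 ± 0.153 for *Col4a6*. There *Col4a3* (30.1 ± 2.51) and *Col4a1* (26.0 ± 2.89) were neighbours within their spread, and with the full mRNA length, chosen as a divisor after seeing the data, *Col4a1* (19.7) came before *Col4a3* (17.6). In vehicle-treated male Alport mice the order was *Col4a1* (92.4 ± 14.7), *Col4a2* (67.0 ± 8.28), *Col4a4* (38.3 ± 4.83), *Col4a3* (13.1 ± 2.65), *Col4a5* (8.59 ± 1.39) and *Col4a6* (1.12 ± 0.590), and the female order was the same. The sum over the 6 chains went from 140.5 ± 10.5 in the male controls to 221 ± 22.4 with Alport disease, and from 127 ± 7.69 to 214 ± 29.5 in females. Of that sum *Col4a1* and *Col4a2* held 31.8% ± 4.08 in the male controls against 72.1% ± 3.93 with Alport disease, and 35.7% ± 2.22 and 71.9% ± 5.30 in females. The genes of the glomerular trimer, with the *Col4a3* reads left in Alport mice included, held 68.0% ± 4.07 and 27.4% ± 4.08 in males, and 63.9% ± 2.31 and 27.5% ± 5.25 in females. With the full mRNA length they held 60.4% and 21.4% in males and 56.1% and 21.7% in females. By that length *Col4a1* and *Col4a2* held 39.4% and 78.0% in males and 43.3% and 77.6% in females. By group means per 1000 coding bases, *Col4a5* was the least abundant chain of the glomerular trimer in vehicle-treated mice of either sex and genotype. With the full mRNA length, *Col4a5* and *Col4a3* lay within their spread in vehicle-treated Alport mice. They were 6.67 ± 1.08 and 7.65 ± 1.55 in males, and 7.22 ± 0.316 and 7.51 ± 1.18 in females.

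**Figure D3:**
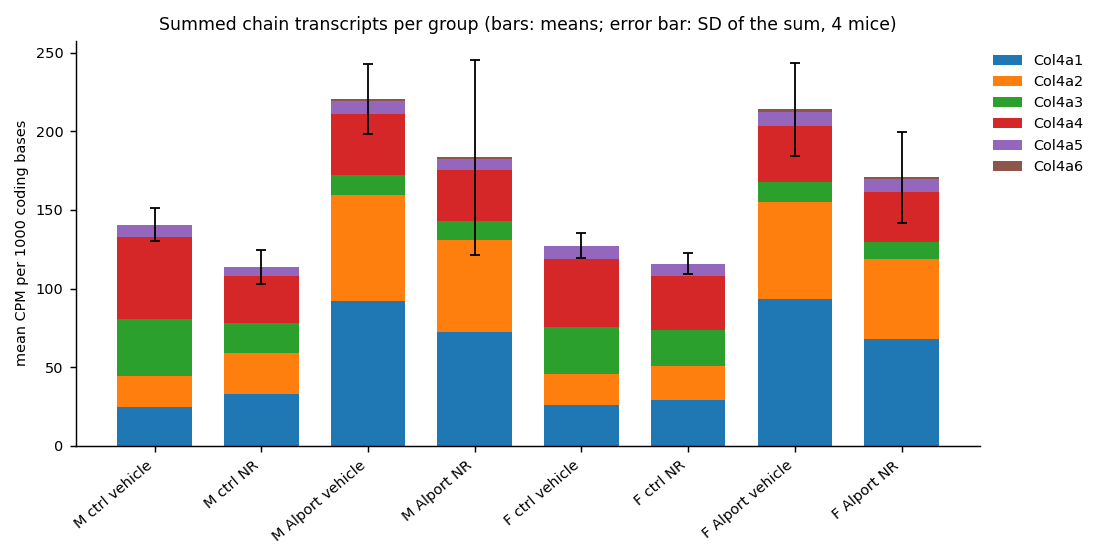
Mean CPM per 1000 coding bases of the 6 chains, stacked for each group of 4 mice, with the SD of the sum as the error bar. The *Col4a1* and *Col4a2* parts are the lower 2 in each bar and take 71.9% to 72.1% of the sum in vehicle-treated Alport mice against 31.8% to 35.7% in vehicle-treated controls.

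The NR groups asked what NAD+ supplementation does in this model. In Alport mice no chain was called between NR and vehicle. In males 0 of 6 members and 0% of all 15500 genes tested were called by edgeR, with 785 genes and no member at an unadjusted p under 0.05, and DESeq2 called 62 genes and 0 members. In females 0 of 6 members and 0.477% of genes were called. Fitted values were below 0 for all 6 chains in both sexes, from −0.37 for *Col4a1* to −0.11 for *Col4a3* in males and from −0.64 for *Col4a6* to −0.14 for *Col4a4* in females. *Col4a6* in females was 7.79, 6.04, 6.90 and 8.55 CPM with vehicle and 5.84, 5.34, 3.60 and 3.87 CPM with NR. Those groups did not overlap, as was so for 9.10% of all genes, and the adjusted p was 0.171 by edgeR, while DESeq2 called it with an adjusted p of 0.0425. *Col4a1* was spread widely among NR-treated males, at 611, 214, 319 and 304 CPM, around a vehicle mean of 462 CPM. Without the highest of these mice, replicate 1, the *Col4a1* difference went from −0.37 to −0.74, with an adjusted p of 0.0803. The summed level of 11 fibroblast and mesangium markers ranged from 478 to 2084 CPM in these 4 mice and from 1041 to 1731 CPM with vehicle, and its part in the *Col4a1* spread was not tested.

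In control mice the chains called between diets were *Col4a3* and *Col4a4*, both lower with NR. The vehicle-treated controls here are the mice that served in the genotype comparisons above. Among females *Col4a3* was 161, 140, 140 and 163 CPM with vehicle and 113, 105, 123 and 122 CPM with NR. *Col4a4* was 217, 204, 222 and 227 CPM with vehicle and 166, 166, 189 and 175 CPM with NR. Neither gene's groups overlapped, beside 14.4% of all genes without overlap, and these 2 of 6 members were called, with log2 changes of −0.38 ± 0.077 (adjusted p = 0.0162) and −0.32 ± 0.068 (adjusted p = 0.0196), beside 6.31% of genes. Both calls were lost without NR-treated replicate 1, where the adjusted p was 0.0529 for *Col4a3* and 0.0655 for *Col4a4*, and in 1 fit of all 32 mice. Among males *Col4a4* was 304, 285, 249 and 217 CPM with vehicle and 110, 160, 134 and 195 CPM with NR, without overlap, as was so for 13.3% of all genes. It was the 1 member of 6 called, at −0.81 ± 0.16 (adjusted p = 0.0272), beside 4.53% of genes. *Col4a3* in the NR-treated males was 59.0, 93.7, 74.9 and 160 CPM, and replicate 4 lay within the range with vehicle. Its change was −0.91 ± 0.25 with an adjusted p of 0.0675.

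Replicate 4 of the NR-treated male controls stood apart from its group in several chains. It had the highest *Col4a3*, *Col4a4* and *Col4a5* and the lowest *Col4a1*, *Col4a2* and *Col4a6* of the 4 mice, and *Col4a2* was 98.0 CPM in it against 145 to 148 CPM in the others. Without it 5 of 6 members were called: *Col4a3* at −1.24, *Col4a4* at −0.95 and *Col4a5* at −0.37 were lower, and *Col4a1* at 0.52 and *Col4a2* at 0.56 were higher with NR. Leaving out any other mouse of the comparison gave 0 or 1 call, and the *Col4a4* call was lost without NR-treated replicate 1 or 3 or vehicle-treated replicate 1, 2 or 4. Cell type markers moved in this comparison too. Beside 4.53% of all genes called, 7 of 9 endothelial, 5 of 11 fibroblast and mesangium and 4 of 6 injured tubule markers rose. Of 12 podocyte markers 0 were called. Of 9 proximal tubule markers only *Slc5a2* was called, lower with NR at −0.47 ± 0.10 (adjusted p = 0.0321 by edgeR). Among the uncalled ones *Aqp1* and *Miox* had positive values. The summed endothelial markers were 424 to 472 CPM with vehicle and 617 to 848 CPM with NR, and the summed podocyte markers 565 to 647 and 544 to 754 CPM. In females 1 endothelial marker rose and no podocyte, fibroblast or injured tubule marker was called, beside 6.31% of all genes. The part of these markers in the chain values was not tested.

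Comparing genotypes on the NR diet, 4 of 6 chains were called in females and 0 of 6 in males, beside 27.5% and 0% of genes. In females *Col4a1* (1.26 ± 0.19, adjusted p = 0.0013), *Col4a2* (1.27 ± 0.13, adjusted p = 0.000272) and *Col4a6* (1.27 ± 0.23, adjusted p = 0.00335) were higher and *Col4a3* (−1.07 ± 0.092, adjusted p = 0.000176) was lower in Alport mice. *Col4a4* in females was 166, 166, 189 and 175 CPM in NR-treated controls and 157, 144, 149 and 197 CPM in NR-treated Alport mice, which overlapped, with a difference of −0.073 ± 0.11. In males *Col4a1* was 165, 195, 167 and 126 CPM in NR-treated controls and 611, 214, 319 and 304 CPM in NR-treated Alport mice. The ranges did not overlap, as was so for 14.7% of all genes, and the difference of 1.17 ± 0.30 had a p of 0.00324 and an adjusted p of 0.0881. *Col4a2* did not overlap either, at 1.17 ± 0.29 with an adjusted p of 0.0823. In that comparison edgeR called no gene while 3215 had an unadjusted p under 0.05, DESeq2 called 1381 genes and 3 members, and 1 fit of all 32 mice called 4 members. The NR and vehicle comparisons of genotype share no mice, but their difference is tested by the interaction of NR and genotype, which called 0 members and 0% of genes in males and in females, with 1398 and 1521 genes at an unadjusted p under 0.05 by edgeR and 18 and 30 genes called by DESeq2. The interaction values were −0.80 ± 0.34 (males, adjusted p = 0.53) and −0.63 ± 0.26 (females, adjusted p = 0.482) for *Col4a1*. *Col4a3* and *Col4a4* had interaction values of 0.78 ± 0.32 (adjusted p = 0.519) and 0.56 ± 0.22 (adjusted p = 0.515) in males, and 0.13 ± 0.14 (adjusted p = 0.809) and 0.16 ± 0.13 (adjusted p = 0.719) in females. In males 2 members, *Col4a1* at −1.16 and *Col4a2* at −0.96, were called without NR-treated Alport replicate 1.

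Within the pairs of neighbouring genes, the ratio of counts was compared in each mouse. *Col4a2* to *Col4a1* was 0.712 to 0.909 in the 16 controls and 0.647 to 0.974 in the 16 Alport mice, while both levels rose more than 3-fold in vehicle-treated Alport mice. *Col4a3* to *Col4a4* changed by −1.04 in log2 between vehicle-treated male Alport and control mice and by −0.96 in females, with no overlap. *Col4a6* to *Col4a5* changed by 1.85 in males and by 1.13 in females, with no overlap either. An exact two-sided permutation test of 4 against 4 mice cannot go below p = 0.0286, which these 4 differences reached, and over the 30 ratios tested their adjusted p was 0.0953. Hence 0 of 30 ratios passed the threshold, which could have been met only if many more of the 30 had reached that smallest p. The ratio of *Col4a6* to *Col4a5* also reached the smallest p between genotypes on NR in females (1.04), between vehicle-treated female and male controls (1.09) and between NR and vehicle in female Alport mice (−0.49), without overlap. On NR the *Col4a3* to *Col4a4* ratio again separated the genotypes, by −0.74 in males and −0.98 in females (exact p = 0.0286 each), whereas NR itself changed it by −0.17 to 0.14 within a genotype and sex, with exact p of 0.286 or more.

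**Figure D4:**
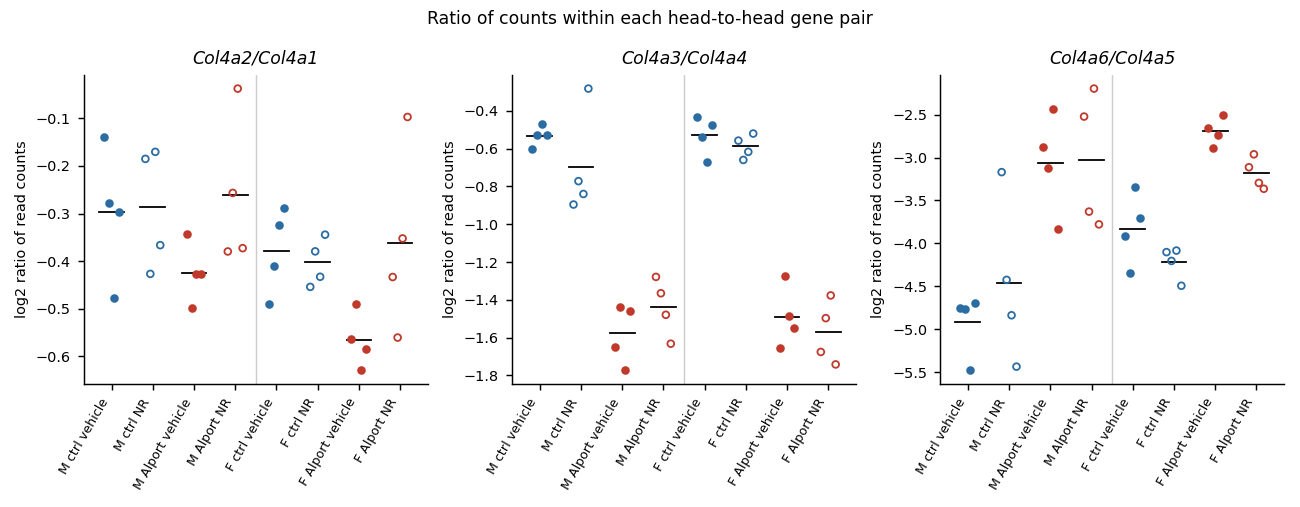
Log2 ratio of read counts (0.5 added to each) within each neighbouring pair for every mouse, with a black line at the group mean. Blue is control, red Alport, filled vehicle and open NR, and the *Col4a3*/*Col4a4* values of the 16 Alport mice all lie below those of the 16 controls.

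Chains also varied between mice of the same group. Deviations of log2 CPM from the group mean were correlated over the 32 mice, which share library and scaling, with permutations within groups and adjustment over 15 pairs. *Col4a1* and *Col4a2* went together most closely, at Pearson's r = 0.933 (permutation adjusted p = 0.00015) and Spearman's rho = 0.89 (adjusted p = 0.00015), and r was 0.879 without the 2 mice farthest from the median. *Col4a3* and *Col4a4* followed at r = 0.827 (adjusted p = 0.00015) and rho = 0.706 (adjusted p = 0.0021), and at r = 0.701 without NR-treated male control replicates 1 and 4. The third neighbouring pair, *Col4a5* and *Col4a6*, had r = 0.285 (adjusted p = 0.365) and rho = 0.216 (adjusted p = 0.43), and r = 0.194 without 2 mice. *Col4a6* instead correlated with *Col4a2* at r = 0.712 (adjusted p = 0.0017) and rho = 0.653 (adjusted p = 0.0075), and with *Col4a1* at r = 0.598 (adjusted p = 0.0137, rho = 0.526, adjusted p = 0.0379). Without the 2 farthest mice these were 0.591 and 0.414. Across the 2 kinds of trimer, the values of *Col4a1* or *Col4a2* with *Col4a3* or *Col4a4* were −0.334 to −0.236, with adjusted p of at least 0.191, and −0.575 to −0.418 without the 2 farthest mice. With total counts in place of TMM the values with *Col4a4* turned to 0.0983 for *Col4a1* and 0.131 for *Col4a2*.

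**Figure D5:**
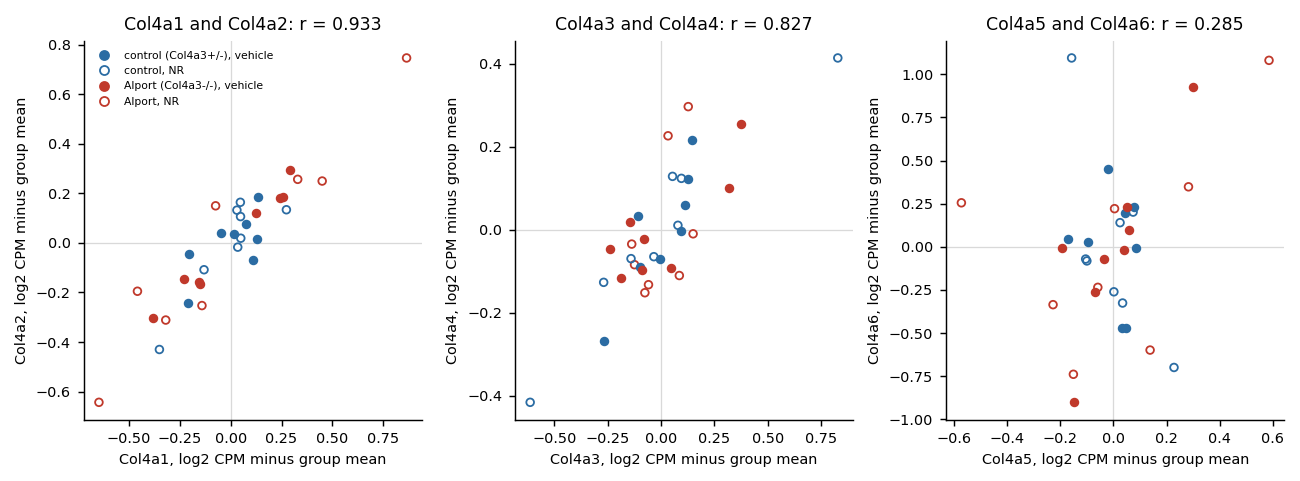
Deviation of log2 CPM from the group mean in each of the 32 mice for the 3 neighbouring pairs, colours and fills as labelled. Points follow a line for *Col4a1* and *Col4a2* (r = 0.933), less closely for *Col4a3* and *Col4a4* (r = 0.827), and scatter for *Col4a5* and *Col4a6* (r = 0.285).

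By the same measure over 16469 genes, each chain was set beside the 3 genes most like it, as a description. The nearest gene to *Col4a1* was *Col4a2* and the nearest to *Col4a3* was *Col4a4*, and the reverse held for both. *Col4a1* was followed by *Fbn1* (r = 0.911), which encodes the microfibril protein fibrillin, and *Myh9* (0.903), a non-muscle myosin. *Col4a2* was followed by *Myof* and *Sept8* (both 0.918). After *Col4a4*, *Col4a3* was most like *Wdfy1* (0.825, rho = 0.581), which lies at chr1:79702262-79776143 (GRCm38.p6) on the chromosome of the targeted gene, and *Slc39a14* (0.806, rho = 0.816), a metal ion transporter. *Wdfy1* was 97.9 CPM in NR-treated male control replicate 4, which stood apart in *Col4a3* too, and 50.9 to 64.3 CPM in the rest of that group. *Wdfy1* did not have the genotype pattern of *Col4a3*, with 66.8 ± 7.44 CPM in vehicle-treated male controls and 82.8 ± 9.93 CPM in male Alport mice. *Col4a4* was most like *Col4a3*, *Nrg4* (0.805, rho = 0.679) and *Wdfy1* (0.797, rho = 0.597). *Col4a5* had *Podn* (0.845, rho = 0.632), *Plxnb1* (0.844, rho = 0.694) and *Smarca1* (0.843, rho = 0.639). *Col4a6* had *Elf4* (0.847, rho = 0.867), *Samd4* (0.844, rho = 0.846) and *Fmnl3* (0.843, rho = 0.787). The number of genes over r = 0.8 was 139 for *Col4a1* and 115 for *Col4a2*, but 4 for *Col4a3*, 2 for *Col4a4*, 5 for *Col4a5* and 19 for *Col4a6*.

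The cell types that make these chains were read from marker lists in the same mice, again beside 51.0% of all genes called in males and 45.8% in females. Podocytes are the source of the *Col4a3*, *Col4a4* and *Col4a5* trimer in the glomerulus, and 10 of 12 podocyte markers rose in vehicle-treated male Alport mice and 9 of 12 in females, with none lower. The summed podocyte markers were 565 to 647 CPM in the male controls against 955 to 1422 CPM with Alport disease, and 771 to 826 and 1049 to 1203 CPM in females, while *Col4a3* and *Col4a4* moved the other way. These sums are RNA levels and not cell numbers. By histology the study reported a lower volumetric podocyte density in Alport mice of both sexes. In its single-nucleus data podocytes were more represented in control mice. Mesangial cells and fibroblasts make the *Col4a1* and *Col4a2* trimer, and 11 of 11 of their markers rose in males and 10 of 11 in females. *Col1a1*, a chain of fibrillar collagen, rose by 5.05 ± 0.19 (males, adjusted p = 8.18e-09) and 3.97 ± 0.31 (females, adjusted p = 1.91e-05). The sums were 158 to 172 CPM in the male controls against 1041 to 1731 CPM with Alport disease, and 196 to 289 and 861 to 1381 CPM in females. Of the endothelial markers 8 of 9 rose in males and 5 of 9 in females, *Cdh5* by 1.02 ± 0.12 and 0.72 ± 0.074. All 6 injured tubule markers rose in each sex, *Lcn2* by 6.48 ± 0.17 and 5.21 ± 0.44, as did 7 and 6 of the 7 immune cell markers, *Adgre1* by 3.48 ± 0.16 and 2.73 ± 0.29. All 9 proximal tubule markers fell in each sex, *Slc5a12* by 1.27 ± 0.12 and 1.11 ± 0.19 on the log2 scale. Of the distal nephron markers 6 and 4 of 9 were called lower, in females a share near that of all genes, with *Slc12a3* at −0.80 ± 0.14 and −0.94 ± 0.14. In RNA of whole cortex, a change in the number of cells of a type and a change in RNA per cell cannot be told apart. The part of these markers in the chain values in this comparison was not tested.

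The genes that make, link, bind, cut and regulate type IV collagen were then counted in vehicle-treated Alport against control mice, with the male value before the female one, beside the 51.0% and 45.8% of all genes called. Of 20 biosynthesis genes, which hydroxylate, fold and export the chains, 8 and 10 rose and 3 fell in each sex, with median log2 fold changes of 0.15 and 0.32. The share called was near that of all genes in males and above it in females. *Fkbp10*, a collagen chaperone, rose by 2.38 ± 0.24 and 1.86 ± 0.19, and *Mia2*, a cargo receptor at endoplasmic reticulum exit sites, fell by 0.75 ± 0.12 and 0.69 ± 0.11 on the log2 scale. All 7 crosslinking genes rose in each sex (medians 2.35 and 1.60), the lysyl oxidase *Lox* by 4.33 ± 0.23 and 2.89 ± 0.31. *Pxdn*, the peroxidase that forms the sulfilimine bond between type IV collagen trimers, rose by 1.72 ± 0.12 and 1.60 ± 0.15. Of 18 basement membrane partners, such as laminins and nidogens, 16 and 15 rose and 1 fell in each sex (medians 1.07 and 0.86). *Col15a1* rose by 3.83 ± 0.14 and 3.06 ± 0.19, and *Lama3*, a laminin alpha chain, fell by 0.43 ± 0.16 and 0.34 ± 0.11 on the log2 scale.

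All 6 collagen receptors rose in each sex (medians 0.91 and 0.72), the integrin *Itga2* by 3.07 ± 0.35 and 2.57 ± 0.33. Of the 9 tested proteases and their inhibitors, 8 rose and 1 fell in each sex, while *Mmp10* was too low to be tested. The metalloproteinase *Mmp7* was at 0 counts in all vehicle-treated male controls and had a mean of 3.43 CPM in vehicle-treated male Alport mice, and in females it rose by 4.37 ± 0.60. *Timp3*, a metalloproteinase inhibitor held in the matrix, fell by 0.45 ± 0.12 and 0.46 ± 0.092 on the log2 scale. Of 5 regulators 5 rose in males and 1 in females (medians 1.16 and 0.20), and *Tgfb1* rose in both, by 2.23 ± 0.089 and 1.90 ± 0.11. With NR no gene of these 6 lists was called in Alport mice of either sex, beside 0% of all genes in males and 0.477% in females. In NR-treated against vehicle-treated male controls 4.53% of all genes were called. There 2 of 7 crosslinking genes, 4 of 18 basement membrane partners, 1 of 5 receptors, 2 of 7 proteases and inhibitors and 2 of 5 regulators rose. Of 20 biosynthesis genes 1 fell. In female controls 1 biosynthesis gene and 1 basement membrane partner fell and no gene of the other lists was called, beside 6.31% of all genes.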

How the data were processed

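Kidney cortex poly(A) RNA of 32 mice, 4 per sex, genotype and treatment, was sequenced (NEBNext Ultra II libraries) and processed by the authors with BioJupies. They deposited a table of raw read counts per gene, used here as deposited, and the submitters' notes name mm10. A second table deposited by the authors holds log10 of CPM plus 1, and it was used only to check that it follows from the counts. The aligner, annotation and strand setting are not given in the sources used here. All 32 samples were grouped by their labels. Treatment groups were balanced over litters per the study's methods, but the labels do not say which mice were littermates, so litter could not enter a fit.

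Each pair of groups was compared by edgeR's quasi-likelihood test (edgeR 4.0.16, R 4.3.3) on its 8 mice, after filterByExpr with a minimum count of 10 and TMM scaling. P-values were Benjamini-Hochberg adjusted over all genes tested, with a threshold of 0.05, and the SE was derived from the F statistic. Interactions used 16 mice. Ratios within gene pairs (0.5 added to each count) were compared by exact two-sided permutation tests, and log2 CPM (prior count 2) deviations were correlated with 100000 permutations within groups (Python 3.11.15, scipy 1.17.1, numpy 2.4.6). On simulated counts for vehicle-treated male Alport and control mice, edgeR found 181 of 200 changed genes with 13 false calls among 14798 genes. On the same counts DESeq2 found 185 with 35 false calls, and limma-voom 178 with 10. In the mice themselves 51.0% of genes were called in this comparison, and counts with that large a share of changed genes were not tested.

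The members and the gene lists were chosen with earlier results of these data known. By rule, the text names from each list the genes with the largest called rise and fall in vehicle-treated male Alport against control mice, and the 3 genes most like each member. *Pxdn* was added after its values were seen. The gene this rule names from the podocyte list is not reported here. Alternatives were DESeq2 1.42.0, limma-voom (limma 3.58.1), other scalings and filters, 1 fit of all mice, a replicate block and leaving out each mouse. Depth was 16621944 to 27778797 counts per mouse. The members had 17 to 17524 counts, so *Col4a6* is the least precise.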

Additional observations from a re-analysis of the deposited data

Results flagged for a closer look

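In 5 of the 48 sets of 4 mice (6 chains in 8 groups), 1 mouse lay far from the other 3: its gap to the nearest of them, as a share of the whole range, passed Dixon's critical value for 4 samples. Chance gives about 1 in 20 such sets. *Col4a1* was 133 CPM in 1 NR-treated female control and 149 to 150.3 CPM in the others, a gap of 0.913 of the range. *Col4a2* was 98.0 CPM in replicate 4 of the NR-treated male controls against 145 to 148 CPM, a gap of 0.936. *Col4a3* was 79.3 CPM in 1 vehicle-treated female Alport mouse against 57.6 to 60.2 CPM, a gap of 0.881. *Col4a4* was 229.6 CPM in 1 vehicle-treated male Alport mouse against 177 to 186 CPM, a gap of 0.833. *Col4a5* was 32.7 CPM in 1 vehicle-treated male control against 37.9 to 38.8 CPM, a gap of 0.86.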

How the results depend on the processing

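Of 1392 alternative values of the members, 1315 kept their direction and side of the threshold, 23 lost and 27 gained a call, and 27 changed sign. In vehicle-treated mice 6 members were called between genotypes in each sex, against 5 in males and 4 in females in 1 fit of all 32 mice, 5 in each sex with total counts, and 4 to 6 in males and 5 to 6 in females when single mice were left out. For NR against vehicle in male controls, 1 member was called, against 4 by DESeq2, 2 with no filter on low counts, 2 in 1 fit of all 32 mice and 0 to 5 without single mice. In female controls 2 were called, 0 in 1 fit of all mice and 0 to 2 without single mice. Between genotypes on NR in males, 0 were called, against 3 by DESeq2 and 4 in 1 fit. For NR in Alport females DESeq2 called 1 member against 0. Between the sexes in controls 1 was called, against 3 by DESeq2, 3 with total counts and 1 to 3 without single mice. The interaction of NR and genotype in males called 0, and 0 to 2 without single mice. The cause of these differences was not tested.

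Of 40 same-number pairs of mice from 2 groups, 9 correlated above 0.1 (r from −0.167 to 0.262). Pairs of unlike numbers were not compared, so these values cannot decide whether replicate numbers pair the mice. With a replicate block, 0 members were called for NR in male controls and 1, *Col4a6*, between genotypes on NR in males, and 3 in place of 4 pair correlations passed.

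Total counts in place of TMM moved the median of all genes by up to 0.336. They turned *Col4a4* in females to 0.022 with vehicle and 0.12 with NR between genotypes, *Col4a3* to 0.050 between the sexes in Alport mice, and the correlation of *Col4a4* with *Col4a1* to 0.0983 and with *Col4a2* to 0.131. Between the sexes, *Col4a2* turned to −0.0077 in controls in 1 fit and *Col4a1* to −0.0045 in Alport mice by limma-voom.

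Without single mice, uncalled values changed sign as follows. For NR in male Alport mice *Col4a3* ranged from −0.19 to 0.032 and *Col4a6* from −0.80 to 0.086, and in male controls *Col4a6* from −0.25 to 0.53. Between genotypes on NR in males *Col4a5* ranged from −0.00088 to 0.39. Between the sexes *Col4a2* ranged from −0.055 to 0.083 in controls, and in Alport mice *Col4a1* from −0.082 to 0.12 and *Col4a3* from −0.16 to 0.11. The sex interaction of *Col4a5* ranged from −0.17 to 0.0068. The NR interaction of *Col4a5* ranged from −0.29 to 0.091 in males and from −0.14 to 0.030 in females, and that of *Col4a6* in females from −0.27 to 0.050.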
